A study of Mus musculus with 6 samples.

Results

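The 10 genes described here encode secreted or membrane-bound zinc proteases that cut extracellular matrix and cell surface proteins, and the proteins that inhibit them. They are the gelatinase Mmp2, the membrane-type enzymes Mmp14, Mmp15 and Mmp24, the ADAMTS proteases Adamts1 and Adamts5, the meprin subunit Mep1a, and the inhibitors Timp1, Timp2 and Timp3. They were taken by name from the 23396 genes of the deposited table, and all 10 were found there. The 4 Mmp genes are matrix metalloproteinases in the strict sense, whereas the ADAMTS proteases and meprin belong to neighbouring families with the same type of zinc-binding catalytic site.

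Total RNA of right kidneys was sequenced from 6 male mice aged 6 months, 3 of the strain C57BL/6N-Far2tm2a(KOMP)Wtsi/2J that were homozygous for the targeted Far2 allele (knockout) and 3 wild-type C57BL/6N mice. The labels name no treatment, and the study compares the genotypes. Far2 encodes a fatty acyl-CoA reductase that makes fatty alcohols. Within a genotype the libraries carry the numbers 0, 1 and 2, which match no label of a mouse. Depth ranged from 15261362 to 20631158 fragments assigned to genes per library. Far2 itself had 22 to 40 fragments per wild-type library and 19 to 31 per knockout library, and its ranges overlapped after scaling to library size. These whole-gene counts do not check the genotype. Of the 8 proximal tubule markers none was at 0 in all libraries, and they summed to 29893 to 36849 CPM, counts scaled to library size with TMM, per library.

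Matrix metalloproteinases are made as inactive proenzymes and become active once a propeptide is removed. Mmp14 sits in the cell membrane and, together with Timp2 as a bridge, activates the Mmp2 proenzyme. The tissue inhibitors of metalloproteinases (TIMPs) block active enzymes by binding the catalytic site. Timp3 differs from the others in that it binds to the matrix and also inhibits ADAMTS proteases. In the kidney, meprin alpha is an abundant protease of the proximal tubule brush border. Timp1 is known as a gene that is low in healthy kidney and rises with injury and inflammation.

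Promoter sequence was found for 8 of the 10 genes. The promoters of the 3 inhibitors and of Mep1a are shown, a choice made from the values below. Timp1 was high in 1 library, and Timp3 was the most abundant of the 3 inhibitors. Timp2 was lower in knockout without overlap between genotypes, as were 6.96% of all genes. Mep1a was higher without overlap, as were 7.12% of all genes. Each run holds 250 bases before and 50 after the transcription start, written 5′ to 3′ on the gene's strand, from RefSeq on GRCm38.p6. They lie at chrX:20869916-20870215 (plus strand), chr11:118355362-118355661 (minus strand), chr10:86300162-86300461 (plus strand) and chr17:43502724-43503023 (minus strand). Capitals mark the GC box GGGCGG on either strand.
Timp1: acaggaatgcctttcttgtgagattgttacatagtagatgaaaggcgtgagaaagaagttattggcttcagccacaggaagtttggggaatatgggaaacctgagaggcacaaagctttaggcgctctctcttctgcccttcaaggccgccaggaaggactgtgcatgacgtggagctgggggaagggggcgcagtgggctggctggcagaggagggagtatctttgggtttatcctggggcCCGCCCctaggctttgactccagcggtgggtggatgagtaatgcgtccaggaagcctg
Timp2: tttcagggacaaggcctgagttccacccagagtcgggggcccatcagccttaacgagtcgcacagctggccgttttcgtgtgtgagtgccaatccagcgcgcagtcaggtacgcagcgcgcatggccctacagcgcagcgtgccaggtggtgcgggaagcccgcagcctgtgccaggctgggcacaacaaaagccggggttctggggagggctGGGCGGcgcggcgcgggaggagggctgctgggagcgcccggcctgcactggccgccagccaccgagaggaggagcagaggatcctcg
Timp3: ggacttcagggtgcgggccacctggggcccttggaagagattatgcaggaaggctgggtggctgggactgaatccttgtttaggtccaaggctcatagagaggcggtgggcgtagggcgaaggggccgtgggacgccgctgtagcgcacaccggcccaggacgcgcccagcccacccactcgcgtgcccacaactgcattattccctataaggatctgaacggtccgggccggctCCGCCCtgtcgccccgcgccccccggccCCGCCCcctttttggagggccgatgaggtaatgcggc
Mep1a: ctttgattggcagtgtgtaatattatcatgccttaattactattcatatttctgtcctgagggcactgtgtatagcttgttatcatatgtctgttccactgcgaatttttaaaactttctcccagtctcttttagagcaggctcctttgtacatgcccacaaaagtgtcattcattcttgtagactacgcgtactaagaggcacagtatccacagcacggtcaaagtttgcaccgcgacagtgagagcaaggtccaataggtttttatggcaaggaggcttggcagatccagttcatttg

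The GC box was present in 7 of the 8 promoters and in 35.7% of all 32851 promoters of the same length. Mep1a was the promoter without it, and its 300 bases held 42.3% G and C, against 55.0% for Timp1, 68.7% for Timp2 and 67.0% for Timp3 and a median of 52.7% over all promoters. The TATA box TATAAA, also searched on both strands, was found in 1 of the 8, that of Adamts1, and in 13.6% of all promoters. It starts at −32 from the Adamts1 start, and the nearest GC box, at −25, does not overlap it. The pattern TGANTCA, used here for the AP-1 site and searched the same way, was found in 0 of the 8 and in 7.81% of all promoters. Variants of that site were not searched. A match, or its absence, describes these letters only.

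Levels per transcript length spanned a wide range. FPKM, fragments scaled to transcript length and library size, are used here because they allow different genes to be compared. Mep1a was highest, with a mean of 667.5 FPKM over the 6 libraries, above 99.4% of the tested genes. Timp3 followed with 426.7 FPKM, above 99.0% of the tested genes. The next were Adamts1 at 10.5 FPKM, Timp2 at 8.11 FPKM and Adamts5 at 4.06 FPKM. Mmp14 averaged 2.35 FPKM, Mmp2 1.14, Timp1 0.653, Mmp15 0.485 and Mmp24 0.116. The place of Timp1 above Mmp15 rests on wild-type library 0, at 2.48 FPKM, and by medians Timp1 was at 0.295 FPKM and Mmp15 at 0.465 FPKM. The ranges over the 6 libraries separated Mep1a from Timp3, Timp3 from Adamts1, Timp2 from Adamts5 and Mmp15 from Mmp24. They overlapped between all other neighbours in this order. Adamts5 with Mmp14, Mmp14 with Mmp2, and Mmp2 with Timp1 overlapped only through wild-type library 0.

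**Figure D1:**
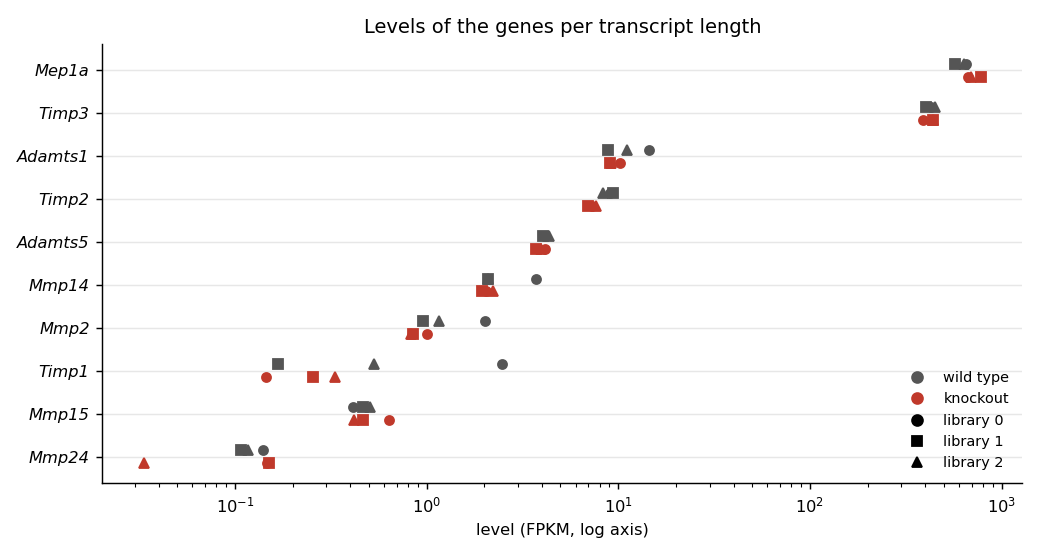
Level of each gene in FPKM (log axis) in each of the 3 wild-type (grey) and 3 knockout (red) libraries, in order of the mean. Mep1a and Timp3 lie between 391.5 and 777.9 FPKM, while all other values are at or below 14.4 FPKM, and for Timp1 wild-type library 0 lies far to the right of the rest.

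Among the 3 inhibitors described here, Timp3 thus made up nearly all of the message. Its share of the summed FPKM of Timp1, Timp2 and Timp3 was 97.4% to 98.4% in every library. Timp4 was not part of this sum. Timp2 made up 1.56% to 2.26%. Timp1 made up 0.561% in wild-type library 0 and at most 0.116% in each other library.

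None of the 10 genes passed the test between genotypes. Of the 10, 9 had enough counts to be tested, and Timp1 did not. At a Benjamini-Hochberg adjusted p under 0.05 over 14354 genes, edgeR called 0 of the 9, and 0% of all genes. DESeq2 called 0 of the 9 as well, and 0.0906% of all genes. The authors' deposited table marks 88 genes as significant, 0 of them among the 10, and it lists Mmp15 and Mmp24 as not tested. At an unadjusted p under 0.05 edgeR had 2 of the 9, Mmp2 and Timp2, beside 8.31% of all genes. Mean levels, here and below by the sign of the fitted fold change, were lower in knockout for 7 of the 9 and for 51.7% of all genes. The median log2 fold change, here always knockout over wild type, was −0.18 for the 9 genes and −0.0066 for all genes. The median of the 9 is the value of Mmp24, a gene with 3 to 13 fragments per library. On CPM, 1 gene was lower in knockout without overlap between the groups (Timp2; 6.96% of all genes were) and 1 was higher (Mep1a; 7.12% of all genes were).

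**Figure D2:**
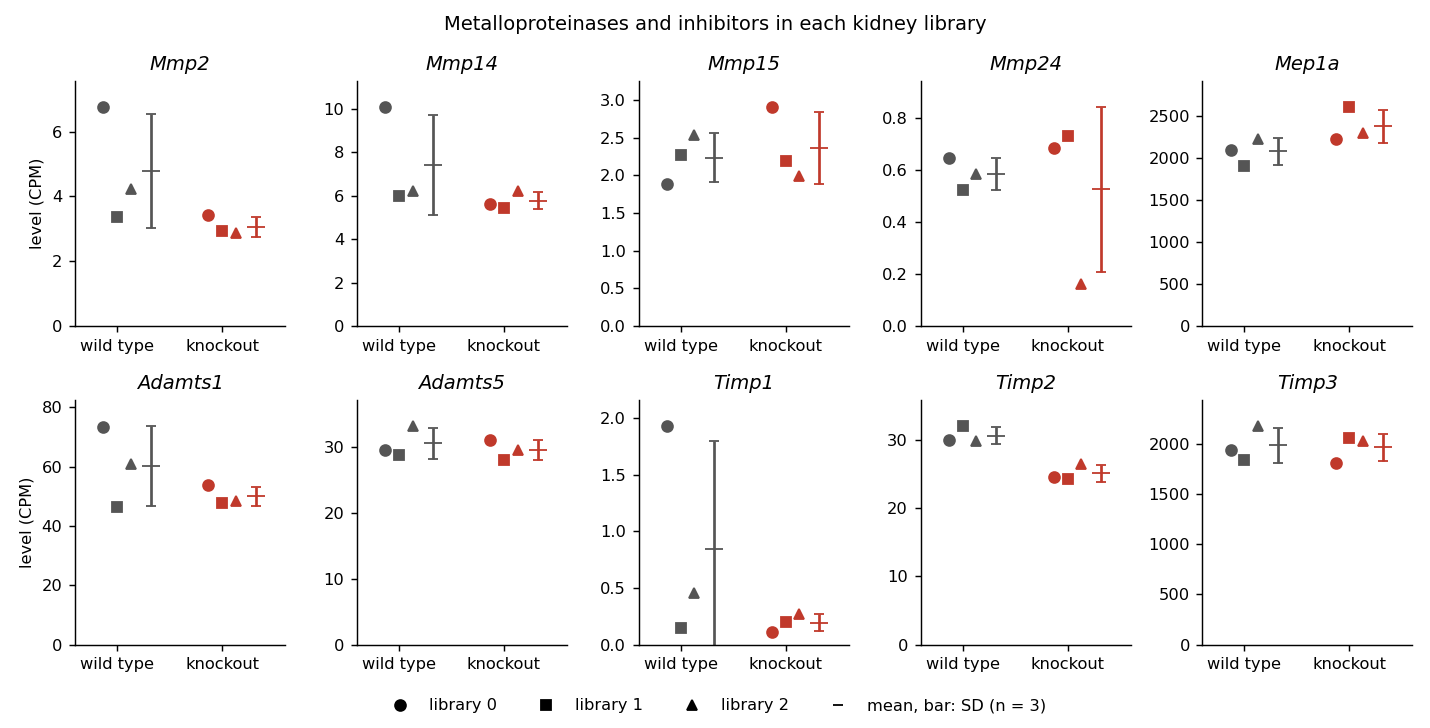
CPM of the 10 genes in the libraries 0 (circle), 1 (square) and 2 (triangle) of each genotype, with the mean and SD (n = 3) beside them; each vertical axis starts at 0, where the bar of Timp1 is cut off. Timp2 is lower in all 3 knockout libraries, and Mmp2, Mmp14, Adamts1 and Timp1 are highest in wild-type library 0.

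Timp2, the inhibitor that also takes part in activating the Mmp2 proenzyme, lies on chromosome 11 from 118301069 to 118355740 (minus strand; GENCODE on GRCm38, the assembly mm10 names). Cep295nl lies within Timp2 on the same strand, without shared exon bases. The level of Timp2 was 30.0, 32.2 and 29.9 CPM in wild-type libraries 0, 1 and 2. In knockout libraries 0, 1 and 2 it was 24.6, 24.3 and 26.5 CPM. Every knockout library was below every wild-type library, and the libraries of each genotype lay close together. The means were 30.7 ± 1.27 CPM in the wild-type libraries and 25.1 ± 1.199 CPM in the knockout libraries (SD, n = 3). The log2 fold change was −0.29 ± 0.078 (SE), with a 95% confidence interval of −0.46 to −0.11, a knockout level of 0.819 times wild type (0.726 to 0.925). This did not pass edgeR's quasi-likelihood test (adjusted p = 0.599, and 0.348 to 0.998 over the alternatives tried). Without wild-type library 0 the change was of the same size, −0.30 ± 0.091 (SE). An exact permutation test over libraries gave p = 0.1, the smallest that 3 against 3 libraries allow. Any gene without overlap gets this value, Mep1a among them, so it only restates the lack of overlap. The authors' deposited table gave Timp2 a log2 fold change of −0.28 and a q of 0.516.

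The summed level of the 7 mesangial cell and pericyte markers was also lower in knockout. It was 176.7 to 190.8 CPM in the wild-type libraries and 140.7 to 164.2 CPM in the knockout libraries, without overlap, and 4 of the 7 markers were lower without overlap, beside 6.96% of all genes. None was at 0 in all libraries. In whole kidney, fewer cells of a type and less RNA per cell cannot be told apart, and the part of these cells in the Timp2 values was not tested.

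Timp3, the matrix-bound inhibitor, lies on chromosome 10 from 86300372 to 86349506 (plus strand). Its level was 1936, 1834 and 2179 CPM in the wild-type libraries and 1809.95, 2054 and 2033 CPM in the knockout libraries. The genotypes overlapped. The log2 fold change was −0.013 ± 0.095 (SE), with a 95% interval of −0.23 to 0.20, a knockout level of 0.855 to 1.15 times wild type. The gene lies within Syn3 on the opposite strand, with which it shares 1733 annotated exon bases. Syn3 was at 4.56 to 5.79 FPKM, against 391.5 FPKM or more for Timp3.

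Timp1, the injury-associated inhibitor, lies on chromosome X from 20870166 to 20874735 (plus strand), within Syn1 on the opposite strand but without shared exon bases. It had 39, 3 and 7 fragments in wild-type libraries 0, 1 and 2 and 2, 3 and 5 in the knockout libraries. Wild-type library 0 stood far above the rest, and the other 5 libraries were all low. In CPM it was at 1.94 in that library, 0.142 and 0.454 in the other wild-type libraries and 0.114, 0.199 and 0.270 in the knockout libraries. The exact 95% Poisson intervals, which cover counting error only, were 1.38 to 2.65 CPM for wild-type library 0 and at most 0.936 CPM at the upper end for any other. The wild-type mean of 0.844 ± 0.958 CPM (SD, n = 3) therefore rests on 1 library, and the genotypes overlapped (knockout mean 0.194 ± 0.078 CPM). The filter on low counts removed Timp1, and in the fit with no filter edgeR's quasi-likelihood test gave an adjusted p of 0.649. The authors' deposited table gave a q of 0.999.

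Mmp2, a gelatinase that cuts collagen IV and denatured collagens, lies on chromosome 8 from 92827291 to 92853420 (plus strand). Its level was 6.75, 3.37 and 4.22 CPM in the wild-type libraries and 3.42, 2.92 and 2.86 CPM in the knockout libraries. Wild-type library 0 was again the highest, and the lowest wild-type library lay just below the highest knockout library. The means were 4.78 ± 1.76 CPM in the wild-type libraries and 3.07 ± 0.305 CPM in the knockout libraries (SD, n = 3). The log2 fold change was −0.64 ± 0.26 (SE; 95% interval −1.22 to −0.066), the largest in size among the 9 tested genes, and it did not pass (edgeR's quasi-likelihood test, adjusted p = 0.599). Without wild-type library 0 it was −0.29 ± 0.20 (SE), and without wild-type library 1 it was −0.85. The authors' deposited table gave −0.62 and a q of 0.190.

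Mmp14, the membrane-type enzyme that activates Mmp2, lies on chromosome 14 from 54431612 to 54445364 (plus strand). Its level was 10.1, 5.98 and 6.23 CPM in the wild-type libraries and 5.64, 5.45 and 6.20 CPM in the knockout libraries. Apart from wild-type library 0, the 5 libraries lay within 5.45 to 6.23 CPM. The log2 fold change of −0.37 ± 0.20 (SE; 95% interval −0.82 to 0.087) became −0.078 ± 0.14 without that library. Neither value passed edgeR's quasi-likelihood test (adjusted p = 0.616 and 0.862, and 0.612 to 0.998 over the alternatives). The ratio of Mmp14 to Timp2 in FPKM was 0.412 in wild-type library 0, 0.223 and 0.253 in the other wild-type libraries and 0.280 to 0.290 in the knockout libraries.

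Mmp15 and Mmp24, the other membrane-type enzymes, were the least abundant of the proteases here. Mmp15 (chromosome 8 from 95352268 to 95375080, plus strand) was at 1.89, 2.28 and 2.53 CPM in the wild-type libraries and 2.90, 2.19 and 1.99 CPM in the knockout libraries. Its genotypes overlapped, with a log2 fold change of 0.091 ± 0.23 (SE; 95% interval −0.42 to 0.60). Mmp24 (chromosome 2 from 155775342 to 155818366, plus strand) had 13, 11 and 9 fragments in the wild-type libraries and 12, 11 and 3 in the knockout libraries. Its log2 fold change was −0.18 ± 0.49 (SE), with a 95% interval of −1.28 to 0.92. That is a knockout level of 0.412 to 1.89 times wild type, so the interval is wide and holds lower and higher levels. Mmp24 shares 637 exon bases with BC029722 on the opposite strand, which was at 11.4 to 14.7 FPKM against 0.0336 to 0.152 FPKM for Mmp24. Since the strand setting of the counting is not given in the sources used here, the Mmp24 count is uncertain.

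Adamts1 and Adamts5, which cut proteoglycans such as versican and aggrecan, are neighbours on chromosome 16, both on the minus strand and 53059 bases apart (85793827 to 85803113 and 85856173 to 85901828). Adamts1 was at 73.3, 46.2 and 60.9 CPM in the wild-type libraries and 53.7, 47.9 and 48.2 CPM in the knockout libraries. It was highest in wild-type library 0, and wild-type library 1 was the lowest of all 6. The log2 fold change was −0.27 ± 0.14 (SE; 95% interval −0.59 to 0.054). It was −0.097 ± 0.12 without wild-type library 0 and −0.42 without wild-type library 1. Adamts5 was at 29.7, 28.9 and 33.3 CPM in the wild-type libraries and 31.1, 28.1 and 29.5 CPM in the knockout libraries. Its genotypes overlapped, and its log2 fold change of −0.046 ± 0.086 (SE; 95% interval −0.24 to 0.15) lay close to 0. Adamts5 did not share the high value of its neighbour in wild-type library 0. By edgeR's quasi-likelihood test the adjusted p was 0.610 for Adamts1, 0.882 for Adamts5, 0.917 for Mmp15, 0.927 for Mmp24 and 0.977 for Timp3.

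**Figure D3:**
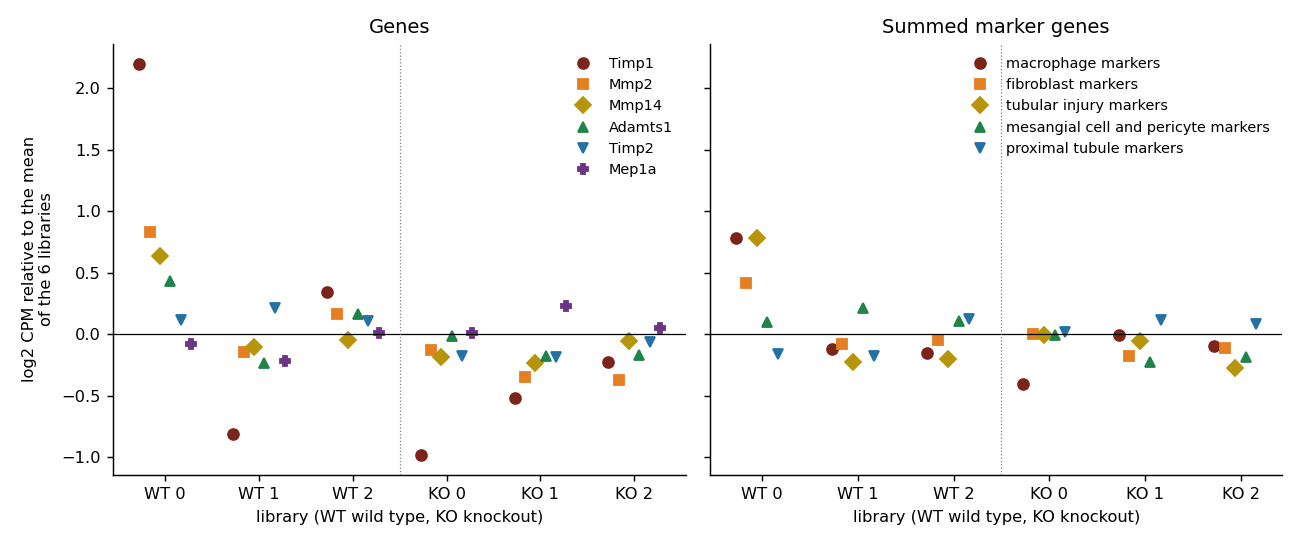
Log2 CPM relative to the mean of the 6 libraries for 6 of the genes (left) and for the summed level of marker genes (right), in wild-type (WT) and knockout (KO) libraries 0 to 2. In wild-type library 0, Mmp2, Mmp14 and Adamts1 lie 0.83, 0.64 and 0.43 above their means, Timp1 farther still, and the macrophage and tubular injury markers 0.78 above theirs.

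Of the 10 genes, 4 were highest in wild-type library 0: Timp1, Mmp2, Mmp14 and Adamts1. Over all tested genes, 17.1% were highest there. The summed level of the 10 macrophage markers was 251.4 CPM in that library and 110.4 to 145.8 CPM in the other 5. The 10 tubular injury markers summed to 1451 CPM there and to 696.6 to 841.7 CPM elsewhere, and the 8 fibroblast markers to 408.5 CPM against 270.9 to 306.1 CPM. Of these lists 9, 9 and 7 genes were highest in that library, and none was at 0 in all libraries. The sums are uneven. Lyz2, the largest macrophage marker there, was at 83.7 CPM against 9.96 to 22.9 CPM elsewhere, and Csf1r at 61.2 CPM against 49.2 to 63.7 CPM. Among the fibroblast markers Col3a1 was at 85.7 CPM there and 34.1 to 40.8 CPM elsewhere. Pdgfra was at 88.6 CPM there and 71.6 to 86.0 CPM elsewhere. The T cell and neutrophil markers, of which 8 of 9 were matched, summed to 9.18 CPM there and to 1.82 to 6.58 CPM elsewhere. The part of these cells in the values of the 4 genes was not tested. The endothelial markers summed to 470.2 CPM in that library, the lowest of the 6, with up to 545.6 CPM elsewhere.

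Genes with the profile most like a gene over the 6 libraries were sought for those whose log2 CPM spanned more than 1. The measure is the root mean square difference of log2 CPM, each gene centred on its own mean. Nearest to Timp1 were C3, a complement component, Cd44, a receptor for hyaluronan, and Igj, the immunoglobulin joining chain, at differences of 0.33, 0.43 and 0.44. Nearest to Mmp2 were Dcn, the proteoglycan decorin, at 0.13, Abi3bp at 0.16 and Fcgbp at 0.17. Dcn was at 74.2 CPM in wild-type library 0 and 37.4 to 44.7 CPM in the other 5. Nearest to Mmp24 were Tcf21, Mcoln3 and Ten1, at 0.33 to 0.37, with 3 to 13 Mmp24 fragments per library.

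Mep1a, the alpha subunit of meprin, lies on chromosome 17 from 43474324 to 43502812 (minus strand). Its level was 2097, 1901 and 2225 CPM in the wild-type libraries and 2227, 2599.5 and 2289 CPM in the knockout libraries. All knockout libraries were above all wild-type libraries, but the highest wild-type and the lowest knockout library were almost equal. With upper-quartile scaling, or without wild-type library 0 or 1, the genotypes overlapped. The means were 2074 ± 163 CPM in the wild-type libraries and 2372 ± 199 CPM in the knockout libraries (SD, n = 3). The log2 fold change was 0.19 ± 0.096 (SE; 95% interval −0.023 to 0.41) and did not pass edgeR's quasi-likelihood test (adjusted p = 0.603). The partner subunit Mep1b averaged 241.7 ± 42.2 CPM in the wild-type libraries and 286.5 ± 26.1 CPM in the knockout libraries, with overlap (log2 fold change 0.25 ± 0.12). The summed proximal tubule markers were at 30292, 29893 and 36849 CPM in the wild-type libraries and 34231 to 36719 CPM in the knockout libraries. These sums were lowest in the 2 wild-type libraries in which Mep1a was lowest. The marker Kap made up a large part of them, at 15606, 13564 and 18719 CPM in the wild-type libraries. In the knockout libraries Kap was at 17033, 20489 and 19209.5 CPM. Kap and Slc22a6 were lowest in wild-type library 1, whereas Lrp2, Cubn and Slc34a1 were not. Slc34a1 was highest there, at 4519 CPM. Of the 8 markers 7 had a higher mean in knockout, beside 6937 of the 14354 tested genes. Among these 7, Lrp2 and Cubn lay close to 0, at log2 fold changes of 0.0044 and 0.013. The median log2 fold change of the 8 was 0.13, and 1 of the 8 was higher in knockout without overlap, beside 7.12% of all genes. Without wild-type library 0, 3 of the 8 had a lower mean. Whether the amount of tubule in the samples has a part in the Mep1a values was not tested.

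**Figure D4:**
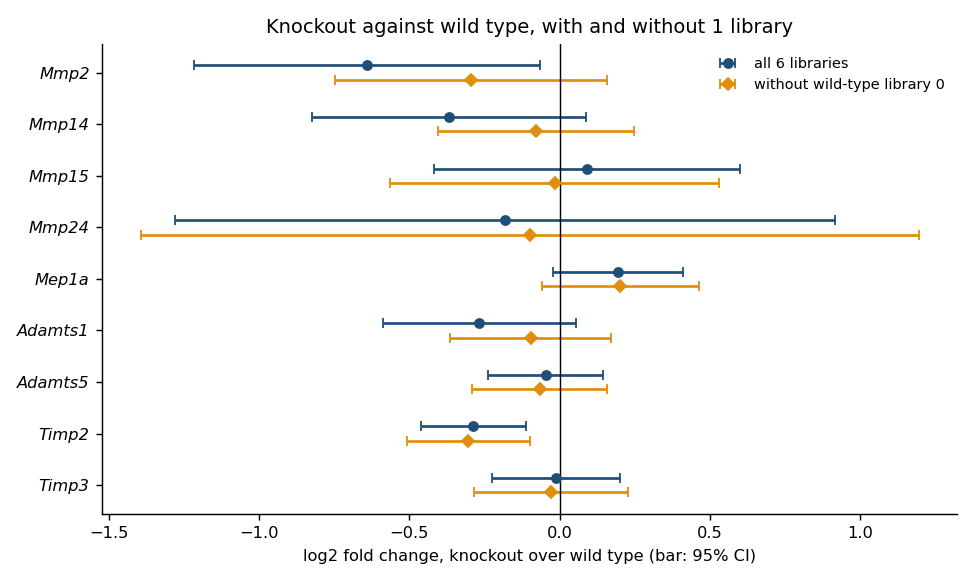
Log2 fold change, knockout over wild type (point) with its 95% confidence interval (bar) for the 9 tested genes, from edgeR with all 6 libraries (circles) and without wild-type library 0 (diamonds). Without that library Timp2 is at −0.30 and Mep1a at 0.20, close to their values with it, and Mmp2, Mmp14 and Adamts1 lie nearer to 0.

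With wild-type library 0 left out, the unadjusted p was under 0.05 for 1 of the 9 genes, Timp2, beside 11.2% of all genes. Timp2 was also the single gene that was lower without overlap in that comparison (15.4% of all genes were), and 0 were higher (14.2% of all genes were). Fitted log2 fold changes were below 0 for 8 of the 9 and for 7132 of the 14339 genes tested with and without that library. The median was −0.078 for the 9 and 0.0016 for those genes.

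The wider pathway was read from 5 lists with 70 further genes, of which 47 were tested. None of the 47 was called by edgeR or by DESeq2, and 11 had an unadjusted p under 0.05 in edgeR, beside 8.31% of all genes. Of the 11, 9 were lower and 2 higher in knockout, beside 738 lower and 455 higher over all genes. Mean levels were lower for 35 of the 47 (74.5%) and higher for 12, and 51.7% of all genes were lower. Of the 47, 7 were lower in knockout without overlap (6.96% of all genes) and 2 were higher (7.12%). The median log2 fold change was −0.15, against −0.0066 for all genes. Without wild-type library 0, 13 of the 47 were lower without overlap and 3 higher, beside 15.4% and 14.2% of all genes. The median was −0.18, and 11 had an unadjusted p under 0.05, beside 11.2% of all genes. Among the other matrix metalloproteinases 9 of 19 genes were tested, 7 with a lower mean in knockout. Mmp11, which had both the highest level and the smallest p of that list, averaged 5.03 ± 0.507 CPM in the wild-type libraries and 4.07 ± 0.168 CPM in the knockout libraries (SD, n = 3), without overlap. Of the other ADAMTS genes 11 of 17 were tested, 9 with a lower mean. Adamts15 was the most abundant, and Adamts12 had the smallest p, at 2.51 ± 0.243 CPM in the wild-type libraries and 1.62 ± 0.281 CPM in the knockout libraries.

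Of the ADAM and astacin proteases, 10 of 13 were tested and 7 had a lower mean. Bmp1, the procollagen C-proteinase, was at 8.61 ± 0.865 CPM in the wild-type libraries and 6.64 ± 0.772 CPM in the knockout libraries (SD, n = 3), and Mep1b was the most abundant. Of the other inhibitors and partners 11 of 13 were tested and 9 had a lower mean. Spock2, a testican proteoglycan, had the smallest p and was at 1.74 ± 0.339 CPM in the wild-type libraries and 0.987 ± 0.230 CPM in the knockout libraries. Bsg, known as an inducer of metalloproteinases, was the most abundant of them, at 335.7 CPM in the wild-type libraries and 359.3 CPM in the knockout libraries. The log2 fold changes were −0.30 ± 0.15 for Mmp11, −0.64 ± 0.22 for Adamts12, −0.38 ± 0.13 for Bmp1 and −0.83 ± 0.28 for Spock2 (SE).

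The plasminogen activator system, whose end product plasmin can activate metalloproteinases, had means on both sides. Of its 8 genes 6 were tested, 3 with a lower and 3 with a higher mean. Serpine2, a plasminogen activator inhibitor, was at 28.8, 19.8 and 20.05 CPM in the wild-type libraries and 18.8, 14.2 and 18.1 CPM in the knockout libraries. Plau, the urokinase-type activator and the most abundant gene of the list, was at 528.5, 730.1 and 743.2 CPM in the wild-type libraries and 891.9, 794.6 and 762.8 CPM in the knockout libraries. Its receptor Plaur, named after its values were seen, was at 3.42, 2.85 and 1.88 CPM in the wild-type libraries and 4.21, 3.79 and 3.99 CPM in the knockout libraries. Serpine2 was lower, and Plau and Plaur were higher, in all knockout libraries, and none of the 3 passed edgeR's quasi-likelihood test (adjusted p = 0.599 for each). Without wild-type library 0 the log2 fold change went from 0.29 to 0.15 for Plau, from 0.54 to 0.73 for Plaur and from −0.42 to −0.22 for Serpine2.

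**Figure D5:**
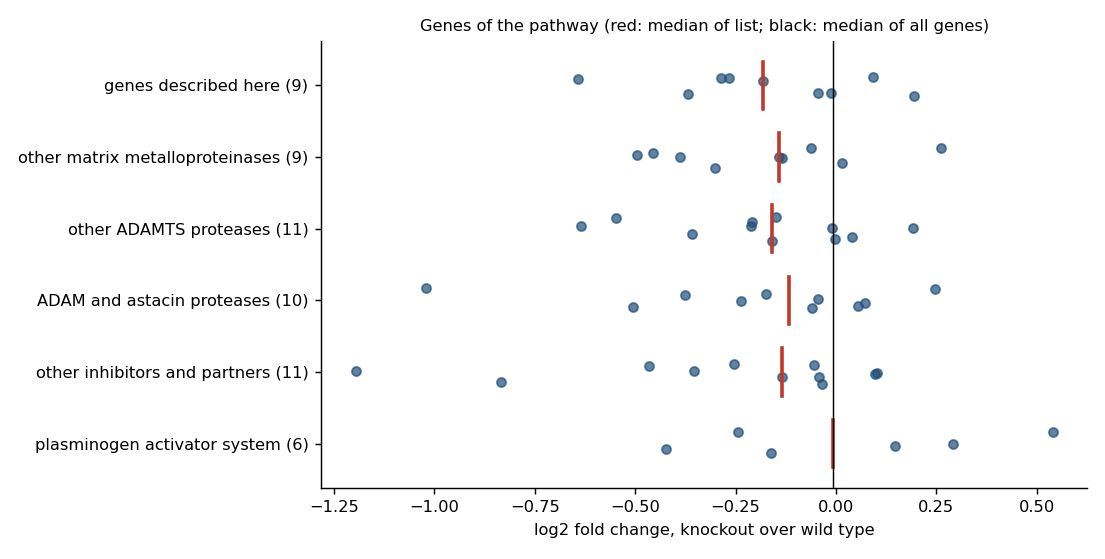
Log2 fold change, knockout over wild type, for each tested gene of the 10 described here and of the 5 further lists (number tested in brackets), with the median of each list in red and the median of all genes in black. The list medians lie between −0.18 and −0.0072, and single genes of every list lie on both sides of 0.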

How the data were processed

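Total RNA of 6 frozen right kidneys was sequenced from stranded libraries without ribosomal RNA, per the labels' protocols. Cuffdiff, Cufflinks 2.2.1, Bowtie2 2.2.3, TopHat2 2.0.13 and the build mm10 stand in the submitters' processing notes beside SAMtools 1.2 and cutadapt 1.2.1, with no role given. Which gene models and strand setting were used is not given in the sources used here. Per gene and library the authors deposited an estimated count, in fragments and not normalized, and FPKM scaled between libraries by Cuffdiff. The authors' table of their own comparison holds, per its file headers, mean FPKM per group, a log2 fold change, a p-value and a q-value. Deposited group means of scaled fragments were left out.

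The test was edgeR 4.0.16 in R 4.3.3: rounded counts that passed filterByExpr, TMM scaling, and a two-sided quasi-likelihood F test between the genotypes without covariates, called at an adjusted p under 0.05. The SE of a log2 fold change was taken as its absolute value divided by the square root of the F statistic. The 95% intervals were built from that SE with the t distribution. CPM use TMM-scaled library sizes. The alternatives were DESeq2 1.42.0, scaling by RLE or upper quartile, no filter or 1 CPM in 3 libraries, voom and log2(FPKM + 1) or log2(FPKM + 0.1) with limma 3.58.1, and leaving out each library. Tests were tried on simulated data. Between libraries of a genotype the variance was 5.99 to 23.3 times that of counting alone. The series' design text calls the samples biological replicates.

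The genes and lists were chosen with earlier results of these data known. All 10 genes are named, then per list the gene with the smallest p and the highest FPKM, and for genes spanning over 1 in log2 CPM the 3 nearest of those with average log2 CPM of 2 or more. Single marker genes named in the text, other than Dcn, were picked after their values were seen. The macrophage marker Adgre1 is Emr1 in the table.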

Additional observations from a re-analysis of the deposited data

How the results depend on the processing

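In all 14 alternatives 0 of the genes tested of the 10 and 0 of the other pathway genes were called at an adjusted p under 0.05, among them DESeq2, limma-voom and limma on FPKM. The genes with an unadjusted p under 0.05 numbered 2 with all libraries in edgeR (Mmp2 and Timp2), 3 with DESeq2 (Mep1a besides) or no filter (Timp1 besides), 2 with limma-voom (Timp2 and Mep1a), 1 with limma on log2(FPKM + 1) and on log2(FPKM + 0.1) (Timp2), and 1 to 4 with a library left out (1 without wild-type library 0 or knockout library 1 or 2, 4 without wild-type library 1, namely Mmp2, Mmp14, Adamts1 and Timp2). Genes lower in knockout without overlap numbered 1, against 2 with upper-quartile scaling and 1 to 4 with a library left out (4 without wild-type library 1, 2 without knockout library 0 or 2). Genes higher without overlap numbered 1, against 0 with upper-quartile scaling and 0 to 2 with a library left out (0 without wild-type library 0 or 1, 2 without knockout library 2). Over all genes in edgeR, 8.31% had an unadjusted p under 0.05, and 6.96% were lower and 7.12% higher without overlap. Without wild-type library 0 these shares were 11.2%, 15.4% and 14.2%. For the other alternatives no share over all genes was taken, so their counts cannot be judged against it. The median log2 fold change of the tested genes among the 10 was −0.18 and ranged from −0.27 to −0.042 with a library left out. Timp2 was lower and Mep1a higher under all 14 alternatives, from −0.33 to −0.25 and from 0.12 to 0.25 with a library left out. With a library left out, Mmp15 ranged from −0.087 (knockout library 0) to 0.21 and was also below 0 without wild-type library 0 (−0.017). Mmp24 ranged from −0.48 to 0.28 (knockout library 2), Timp3 from −0.063 to 0.060 (wild-type library 2; 0.044 without knockout library 0) and Adamts5 from −0.084 to 0.016 (wild-type library 2), so their direction reversed. The cause was not tested. Timp1 could be tested only with no filter. No paired analysis was possible because the numbers of the libraries match no label. Depth limits Timp1 and Mmp24, with 2 to 39 and 3 to 13 fragments per library.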
